A study of Mus musculus with 6 samples.

Results

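Laminins and integrins, the trimers of the basement membrane and the cell surface receptors that bind them, were examined in polysomal mRNAs of hippocampal astrocytes. All genes with symbols of the form Lam followed by a, b or c and a digit, Itga followed by a number or Itgb followed by a digit were taken, together with Itgav. This gave 31 of the 22086 genes in the counts, of which 11 encode laminin chains (5 alpha, 3 beta and 3 gamma) and 20 integrin chains (12 alpha and 8 beta). Genes were taken by name, and each is represented by its transcript with the largest summed count. Leukocyte and platelet chains with letters in their names, such as Itgam, fall outside it.

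The libraries came from whole hippocampi of mice 6 weeks old, 3 of them labelled Cx43FL (tg:Aldh1L1-RPL10aGFP and Cx43 fl/fl, control littermates) and 3 labelled Cx43KO (the same alleles plus Gfap Cre). All mice thus carried 2 floxed alleles of Gja1, which encodes Connexin 43 (Cx43), and the TRAP (translating ribosome affinity purification) transgene, in which the Aldh1l1 promoter drives an eGFP-tagged ribosomal protein L10a. The tag is set by Aldh1l1 and the deletion by the human GFAP promoter that drives Cre, so that tagged and recombined cells need not be the same cells. The number of animals per library is not given in the sources used here, and p-values measure only the spread between these libraries.

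Total counts on genes were 14787315 to 15391187 in Cx43FL and 16056348 to 34733476 in Cx43KO. Levels are given as CPM, counts per M of a library's counts on genes scaled by TMM (trimmed mean of M values), and levels of different genes are compared only as CPM per kb of transcript. A floor of 3 counts corresponded to 0.0926 to 0.199 CPM and covers counting error only. Where values of 3 libraries stand side by side, they are those of replicates 1, 2 and 3. Gja1 had 91.9, 91.7 and 82.3 CPM (Cx43FL) and 87.2, 98.4 and 95.1 CPM (Cx43KO), so the targeted gene was not lower in the libraries labelled Cx43KO. These are counts over the whole transcript, whose spread over its 2 exons is not seen, and genotypes are therefore named by label. Cx43KO replicate 1 stood apart from the other libraries, at 123.4 on a first principal component (41.0% of the variance) on which the others lay between -50.7 and -0.41. The numbers in the names of the deposited counts, which are not the replicate numbers, fall in a separate range for each genotype. What they stand for is not given in the sources used here, and a difference between these sets of libraries cannot be told apart from the genotype. Summed over 8 astrocyte markers (Gfap, Slc1a3, Aqp4 and others), the Cx43FL libraries held 16471 to 20729 CPM and the Cx43KO libraries 10171 to 28883 CPM, and none of the 8 was at 0 in all libraries. Of the 8, 1 was lower in every Cx43KO library (Gjb6, 420 to 546 CPM in Cx43FL against 192 to 339 CPM) and 0 were higher. Over all genes tested further on, these shares were 7.45% and 8.08%.

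Laminins are secreted as trimers of an alpha, a beta and a gamma chain that polymerise into basement membranes, and the vessels of the brain are wrapped by such a sheet under the astrocyte endfeet. Integrins are pairs of an alpha and a beta chain. Itgb1 pairs with the laminin-binding chains Itga3, Itga6 and Itga7 and with many others, whereas Itgav pairs with Itgb8 and Itgb5, and the Itgav and Itgb8 pair is known for the activation of latent TGF-beta. Itgb2 is the beta chain of leukocytes.

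The promoters of Itgb1 and Itgb5, whose libraries did not overlap between genotypes, and of Itgav, a partner of both, are shown as the 250 bases before the RefSeq start (GRCm38.p6), 5′ to 3′. Capitals mark GC boxes (GGGCGG on either strand). The other motifs searched on both strands, TATAAA and CCAAT, were not in these windows. The windows are chr8:128685404-128685653 for Itgb1, chr16:33829415-33829664 for Itgb5 and chr2:83724147-83724396 for Itgav, all on the plus strand and directly upstream of the annotated genes.
Itgb1: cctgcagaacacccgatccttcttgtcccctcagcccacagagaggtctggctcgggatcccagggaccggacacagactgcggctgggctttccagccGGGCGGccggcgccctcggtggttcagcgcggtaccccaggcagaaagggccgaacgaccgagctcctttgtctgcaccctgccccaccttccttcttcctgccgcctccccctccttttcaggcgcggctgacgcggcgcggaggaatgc
Itgb5: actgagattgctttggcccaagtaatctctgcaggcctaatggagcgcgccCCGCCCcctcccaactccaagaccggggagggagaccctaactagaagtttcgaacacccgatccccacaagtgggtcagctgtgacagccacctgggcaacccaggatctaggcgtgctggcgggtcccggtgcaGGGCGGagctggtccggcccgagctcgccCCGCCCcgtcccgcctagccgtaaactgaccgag
Itgav: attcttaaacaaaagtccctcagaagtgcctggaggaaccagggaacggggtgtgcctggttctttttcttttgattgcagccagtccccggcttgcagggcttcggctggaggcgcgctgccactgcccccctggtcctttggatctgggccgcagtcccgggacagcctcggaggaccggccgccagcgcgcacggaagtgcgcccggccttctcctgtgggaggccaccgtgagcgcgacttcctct
Itgb1 held 1 GC box, Itgb5 held 3 and Itgav held 0. The windows were rich in G and C (68.0%, 65.2% and 64.4%, against a median of 52.4% over all 32851 RefSeq promoters) and held 21, 18 and 18 CpG. Of the 31 genes, 20 matched RefSeq promoters, 23 windows in all. A GC box was found in 8 of these 23 windows and in 32.7% of all promoters, TATAAA in 0 and in 12.4%, and CCAAT in 3 and in 33.8%.

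In Cx43FL the beta chains Itgb8 and Itgb5 led, and on this transcript 6 of 31 genes, all integrins, had a mean level above 1 CPM per kb. With the transcripts of a gene added up there were 11, the laminin chains Lamc1 (1.41) and Lamb1 (1.16 CPM per kb) among them. Reads shared by transcripts of a gene count more than once in these sums, which raises them. Itgb4 thus had 0.476 CPM per kb on its main transcript and 2.87 added up, and Lamb1 had 0.550 on its main transcript. Itgb8 had 16.01, 9.44 and 13.7 CPM per kb, a mean of 13.1 ± 3.34 CPM per kb (SD, n = 3). Itgb5 followed at 7.40 ± 1.60, Itga6 at 6.50 ± 2.43, Itgb1 at 6.34 ± 0.98, Itgav at 5.94 ± 0.81 and Itga4 at 1.45 ± 0.90 CPM per kb. Only Itgb8 and Itgb5, and Itgav and Itga4, were neighbours in this order that did not overlap in the Cx43FL libraries among the first 15 genes, and the rank of Itgb5, Itga6, Itgb1 and Itgav was within their spread. Cx43FL thus held the beta chain of the TGF-beta activating pair at the top, its alpha chain Itgav among the next 4, and the general beta chain Itgb1 beside them.

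**Figure D1:**
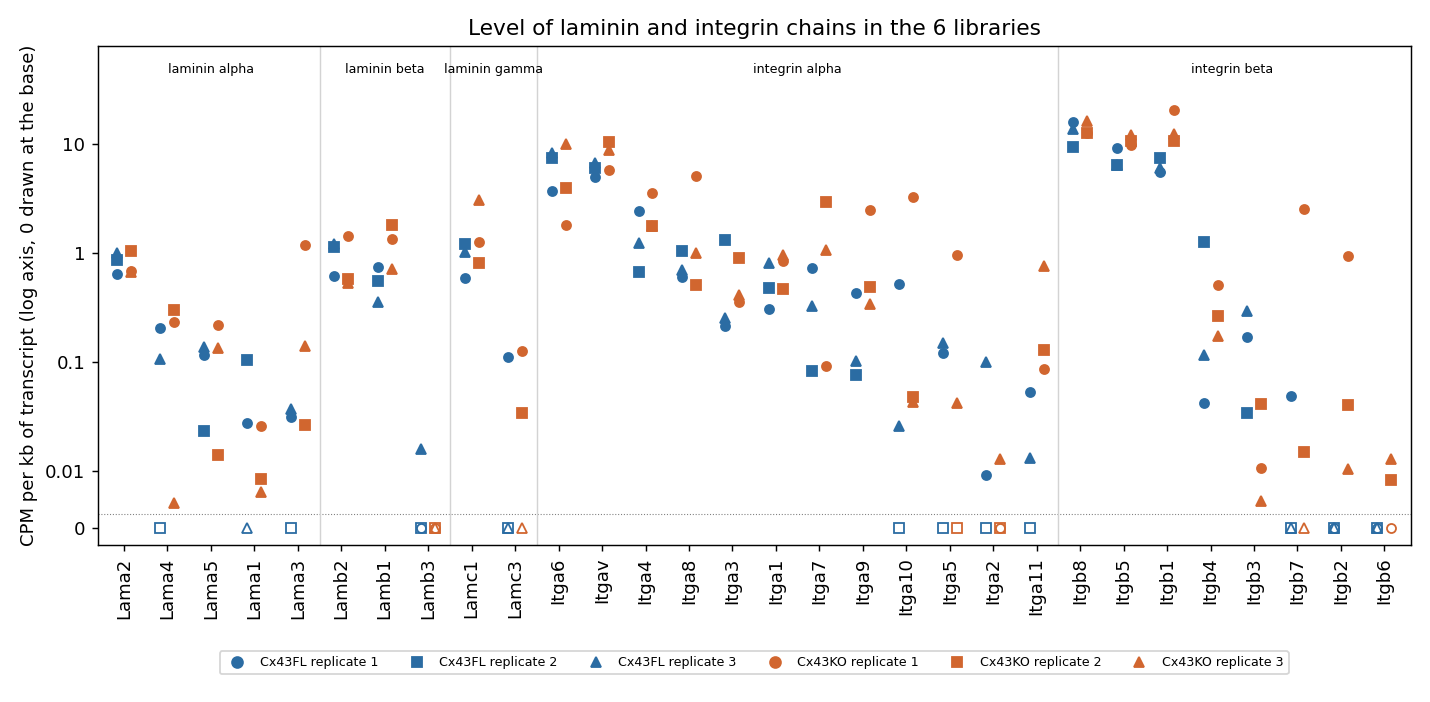
Level of laminin and integrin chains in CPM per kb of transcript (log axis, genes at 0 drawn as open symbols at the base) in each Cx43FL library (blue) and Cx43KO library (orange). Itgb8, Itgb5, Itgb1, Itgav and Itga6 sit highest, and several chains near the floor have a single orange circle, Cx43KO replicate 1, far above the rest.

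The laminin chains were lower than the leading integrins. Lamb2, Lamc1 and Lama2, chains of the laminin of brain basement membranes, had 0.985 ± 0.32, 0.947 ± 0.32 and 0.843 ± 0.18 CPM per kb in Cx43FL, and Lamb1 had 0.550 ± 0.19. Lama2 made up 63.0%, 87.3% and 78.0% of the summed level of the 5 laminin alpha chains. Lama4 and Lama5, known for the basement membrane of vessel walls, were at 0 to 0.207 and 0.0233 to 0.137 CPM per kb. Of all 31 genes, 11 were below 0.1 CPM per kb in the mean of Cx43FL, 13 had at least 1 library at 0 counts, and Itgb2 and Itgb6 were at 0 counts in every Cx43FL library.

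The quasi-likelihood test of edgeR was run over the 13545 genes that passed its filter on low counts, 18 of the 31 among them (6 laminins and 12 integrins). Calls required an adjusted p (Benjamini-Hochberg) below 0.05 together with over 50 normalized counts on average in the higher genotype. Of the 18, 0 were called higher and 0 lower in Cx43KO, where 0.00738% and 0% of all tested genes were called. At an unadjusted p below 0.05 there were 1 higher (Itgb1, with 5.66% of all tested genes) and 0 lower (with 2.67%). DESeq2 with and without its prior on the fold changes also called 0 in either direction (0.824% higher and 0.124% lower over all genes with the prior, 1.01% and 0.188% without it). At an unadjusted p below 0.05 it gave 3 of 21 higher with the prior (Itgb1, Itga9 and Lama3, with 8.03% of all genes) and 5 of 24 without it (these and Itga11 and Itgb2, with 8.36%), and 0 lower (3.8% and 4.11%). The genotypes did not overlap for 2 of the 18, Itgb1 and Itgb5, with all of Cx43KO above all of Cx43FL (8.08% of all tested genes), and all of Cx43KO lay below for 0 (7.45%).

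Itgb1, the beta chain shared by most laminin and collagen receptors (chromosome 8, 128685654 to 128733200, plus strand), had 21.1, 28.4 and 23.1 CPM (Cx43FL) and 79.0, 41.0 and 47.9 CPM (Cx43KO). The libraries labelled Cx43KO all lay above those labelled Cx43FL, with replicate 1 the highest. The log2 fold change was 1.21 (standard error 0.40), 2.31-fold, with an adjusted p of 0.540 from edgeR and an unadjusted p of 0.0114. The adjusted p was 0.151 and 0.131 from DESeq2 with and without its prior, and 0.131 to 0.934 over all alternatives, so that the difference did not pass the test. The exact permutation test (2-sided, on CPM plus 0.5 in log2) gave p = 0.1, the smallest that 3 against 3 libraries allow. Without Cx43KO replicate 1 the log2 fold change was 0.87, with a standard error of 0.38 and an adjusted p of 0.561 from edgeR.

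Itgb5, which binds vitronectin together with Itgav (chromosome 16, 33829665 to 33949338, plus strand), had 28.3, 19.7 and 19.9 CPM (Cx43FL) and 29.9, 32.7 and 37.4 CPM (Cx43KO). The lowest library labelled Cx43KO was close to the highest labelled Cx43FL. On the log2 scale the difference of Itgb5 was 0.56 with a standard error of 0.41 (adjusted p = 0.689 from edgeR). Itgav (chromosome 2, 83724397 to 83806916, plus strand) had 35.7, 43.0 and 47.0 CPM (Cx43FL) and 41.0, 74.4 and 62.9 CPM (Cx43KO). Cx43KO replicates 2 and 3 lay above all of Cx43FL and replicate 1 among them. Itgav thus had a log2 fold change of 0.50 with a standard error of 0.36 (adjusted p = 0.683 from edgeR).

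Itgb8 had 135, 79.3 and 115 CPM (Cx43FL) and 107, 107 and 137 CPM (Cx43KO). The genotypes overlapped throughout. Its log2 fold change of 0.09 had a standard error of 0.31 and an adjusted p of 0.946 from edgeR, the smallest error of the 12 integrins tested, and leaving out single libraries moved it between -0.11 and 0.25.

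Some marker sums also lay higher in every Cx43KO library, as Itgb1 and Itgb5 did. These were the choroid plexus markers (457 to 15276 CPM in Cx43FL against 22002 to 32765 CPM, 5 of 5 markers without overlap), the oligodendrocyte precursor markers (13.4 to 14.0 against 15.8 to 30.8 CPM, 1 of 2) and the microglia and myeloid markers (30.1 to 58.2 against 97.3 to 169 CPM, 3 of 12, of which 10 were tested). The precursor marker without overlap was Cspg4, whereas Pdgfra overlapped. Over all tested genes 8.08% lay above in every Cx43KO library. The part of these cells in the levels of Itgb1 and Itgb5 was not tested.

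**Figure D2:**
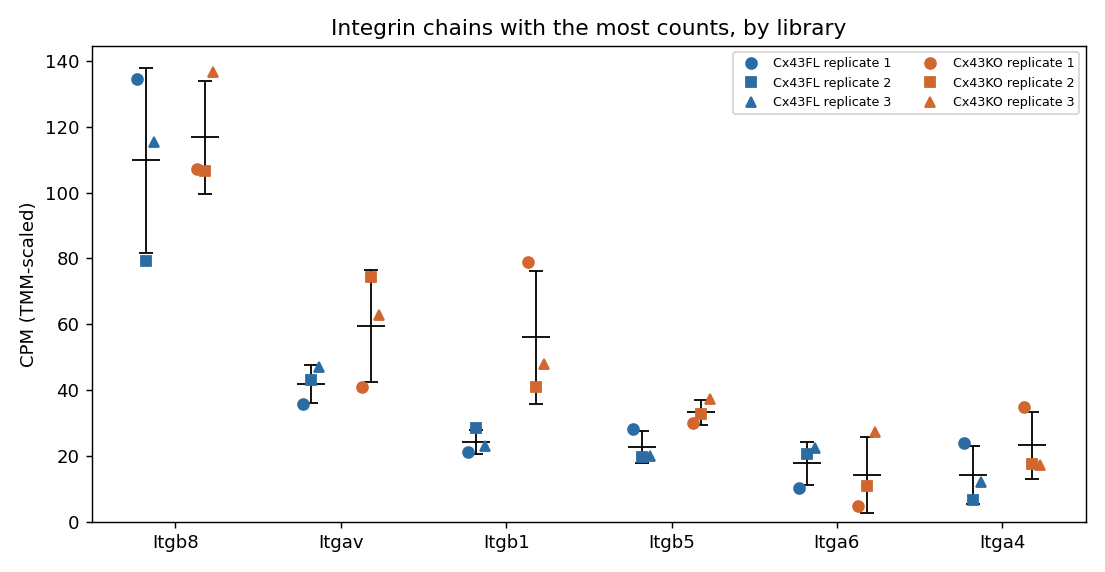
CPM of the 6 integrin chains with the most counts in each Cx43FL library (blue) and Cx43KO library (orange), with the mean and SD (black bars, n = 3). The orange symbols lie above all blue ones for Itgb1 and Itgb5, whereas those of Itgb8, Itgav, Itga6 and Itga4 overlap with blue.

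Itga6, an alpha chain of laminin receptors, had 10.1, 20.4 and 22.5 CPM (Cx43FL) and 4.90, 10.8 and 27.2 CPM (Cx43KO), and the log2 fold change of -0.31 had a standard error of 0.67 (adjusted p = 0.909 from edgeR). Both its lowest and its highest library were Cx43KO. The transcript that carries the most counts of Itga6 is a processed transcript of 3 exons and 2.721 kb, and its place in the order of levels rests on it. On the longest coding transcript, chosen after the counts were seen, the log2 fold change was -0.76 (standard error 0.59). Itga4, which pairs with Itgb1 and binds Vcam1, had 23.8, 6.63 and 12.1 CPM (Cx43FL) and 35.0, 17.4 and 17.3 CPM (Cx43KO), and its log2 fold change of 0.71 had a standard error of 0.59 (adjusted p = 0.732 from edgeR). Cx43FL replicate 1 lay above 2 of the Cx43KO libraries. In the transcript of Itga4, 11.5% of the bases overlap exons of Cerkl on the opposite strand.

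Among the laminins, Lama2 had 6.26, 8.42 and 9.64 CPM (Cx43FL) and 6.58, 10.1 and 6.42 CPM (Cx43KO), and the log2 fold change of -0.07 had a standard error of 0.67. The genotypes lay in the same range. Lamb2 had 3.49, 6.37 and 6.77 CPM (Cx43FL) and 8.07, 3.26 and 2.99 CPM (Cx43KO). The highest Lamb2 library was Cx43KO replicate 1, while the other two Cx43KO libraries lay below all of Cx43FL, and the log2 fold change was -0.22 (standard error 0.85).

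Lamb1 had 4.28, 3.18 and 2.08 CPM (Cx43FL) and 7.76, 10.4 and 4.17 CPM (Cx43KO). Cx43KO replicate 3 lay just under Cx43FL replicate 1, and the log2 fold change of 1.22 had a standard error of 0.83 (adjusted p = 0.668 from edgeR). Lamc1, the gamma chain of most laminins, had 4.54, 9.22 and 7.88 CPM (Cx43FL) and 9.62, 6.23 and 23.4 CPM (Cx43KO). Its highest library, Cx43KO replicate 3, lay well above any Cx43FL library, but replicate 2 lay below 2 of them, and the log2 fold change of 0.86 had a standard error of 0.71 (adjusted p = 0.726 from edgeR). Without Cx43KO replicate 3 it was 0.13 (standard error 0.78).

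Lama4 had 1.25, 0 and 0.651 CPM (Cx43FL) and 1.43, 1.81 and 0.031 CPM (Cx43KO), and its log2 fold change of 0.77 had a standard error of 1.67. Lama5 had 1.32, 0.265 and 1.56 CPM (Cx43FL) and 2.48, 0.161 and 1.54 CPM (Cx43KO), and its log2 fold change of 0.41 had a standard error of 1.34. Both chains overlapped between genotypes, with libraries near or under the floor in each.

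The other integrins tested were lower and more scattered. Itga1, a collagen receptor chain, had 3.36, 5.24 and 8.86 CPM (Cx43FL) and 9.37, 5.10 and 10.6 CPM (Cx43KO). Itga3 had 1.05, 6.50 and 1.24 CPM (Cx43FL) and 1.74, 4.42 and 2.01 CPM (Cx43KO). Itgb4, the partner of Itga6 in hemidesmosomes, had 0.263, 7.89 and 0.716 CPM (Cx43FL) and 3.17, 1.65 and 1.08 CPM (Cx43KO). These overlapped between genotypes, and Cx43FL replicate 2 was the highest library of both Itga3 and Itgb4. The log2 fold changes of Itga1, Itga3 and Itgb4, 0.52, -0.11 and -0.59, had standard errors of 0.75, 1.11 and 1.32. Itga7, a laminin receptor chain known from muscle, had 2.96, 0.332 and 1.30 CPM (Cx43FL) and 0.372, 11.7 and 4.32 CPM (Cx43KO). Cx43KO replicates 2 and 3 lay above all of Cx43FL and replicate 1 near its lowest, and the log2 fold change of 1.83 had a standard error of 1.30 (adjusted p = 0.683 from edgeR). Without Cx43KO replicate 2 it was 0.62 (standard error 1.52).

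Of the 18 genes tested, 13 had a positive (54.4% of all tested genes) and 5 a negative log2 fold change, and the median was 0.54, against 0.07 over all 13545 genes. For 9 of the 18 the fold change was larger than its standard error, and for 2 (Itgb1 and Itga9) larger than 2 standard errors, against 43.8% and 11.7% of all 13545 genes. The median standard error was 0.79, against 0.53 over all genes. Bulk counts cannot tell a change in the number of cells of a type from a change in RNA per cell.

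**Figure D3:**
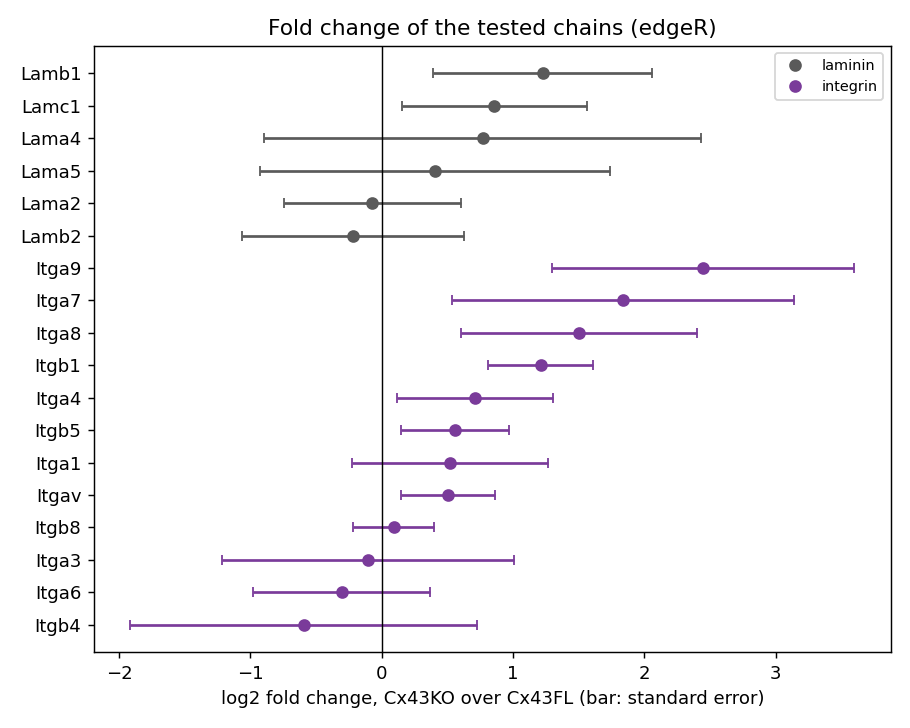
log2 fold change of the 18 tested chains, Cx43KO over Cx43FL, with the standard error as bars (edgeR, n = 3 libraries per genotype), laminins in grey and integrins in purple. Itgb1 and Itga9 lie more than 2 standard errors from 0, whereas Itgb8 and Lama2 lie close to 0.

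The make-up of the chains was compared within each library, as percent of the summed CPM per kb. Among the 8 integrin beta chains, Itgb1 made up 17.8%, 30.2% and 22.6% (Cx43FL) and 43.8%, 31.1% and 30.5% (Cx43KO). The Cx43KO shares lay above all of Cx43FL, in replicates 2 and 3 by less than 1 percentage point over Cx43FL replicate 2. Itgb8 made up 51.6%, 38.3% and 51.4% (Cx43FL) and 27.0%, 36.8% and 39.4% (Cx43KO), and these overlapped. The ratio of Itgb5 to Itgb8 per kb was 0.577, 0.683 and 0.475 (Cx43FL) and 0.766, 0.843 and 0.753 (Cx43KO), with no overlap, whereas that of Itgb1 to Itgb8, 0.346 to 0.788 and 0.773 to 1.62, overlapped. Of the other ratios taken, Itgb1 to Lama2 did not overlap. Those of Itgb1 to Itgb5, Itgav to Itgb8, Itgb1 to Itgav and Lama2 to Lamc1 overlapped. The share of all gene pairs without overlap was not computed, so these ratios have no background to be read against.

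The summed level of the 8 beta chains was 24.6 to 31.1 CPM per kb in Cx43FL and 34.5 to 47.3 CPM per kb in Cx43KO, and that of the 12 alpha chains 14.2 to 18.6 and 21.8 to 25.3 CPM per kb. Both sums were higher in every library labelled Cx43KO. In Cx43KO replicate 1, Itga8, Itga10, Itga9 and Itga5, counted mainly in that library, made up 21.1%, 13.3%, 10.2% and 3.94% of the alpha sum. The higher alpha sum of replicate 1 thus rests in large part on these chains. Of the alpha chains leading in Cx43FL, Itgav in replicate 1 (5.81 CPM per kb) lay within Cx43FL (5.06 to 6.67). Itga6 (1.80) lay below it (3.73 to 8.26) and Itga4 (3.58) above it (0.679 to 2.43). Itgav had nearly equal shares of the alpha chains in the Cx43FL libraries, 35.6%, 35.2% and 35.7%, and had 23.8%, 48.4% and 35.2% in Cx43KO replicates 1 to 3. These shares, and their near equality in Cx43FL, depend on the transcript taken for Itga6. In Cx43FL its processed transcript, used here, had 3.73, 7.51 and 8.26 CPM per kb. The longest coding transcript of Itga6 had 2.06, 4.89 and 4.14 CPM per kb. The sums of the laminin alpha and beta chains overlapped between genotypes, at 1.004 to 1.28 and 1.36 to 1.68 CPM per kb in Cx43FL and 0.956 to 2.35 and 1.25 to 2.78 CPM per kb in Cx43KO. The share of Lama2 among the alpha chains was 29.1%, 75.1% and 69.9% in Cx43KO replicates 1 to 3. In replicate 1 Lama3, an alpha chain of epithelial basement membranes, made up 50.5%.

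**Figure D4:**
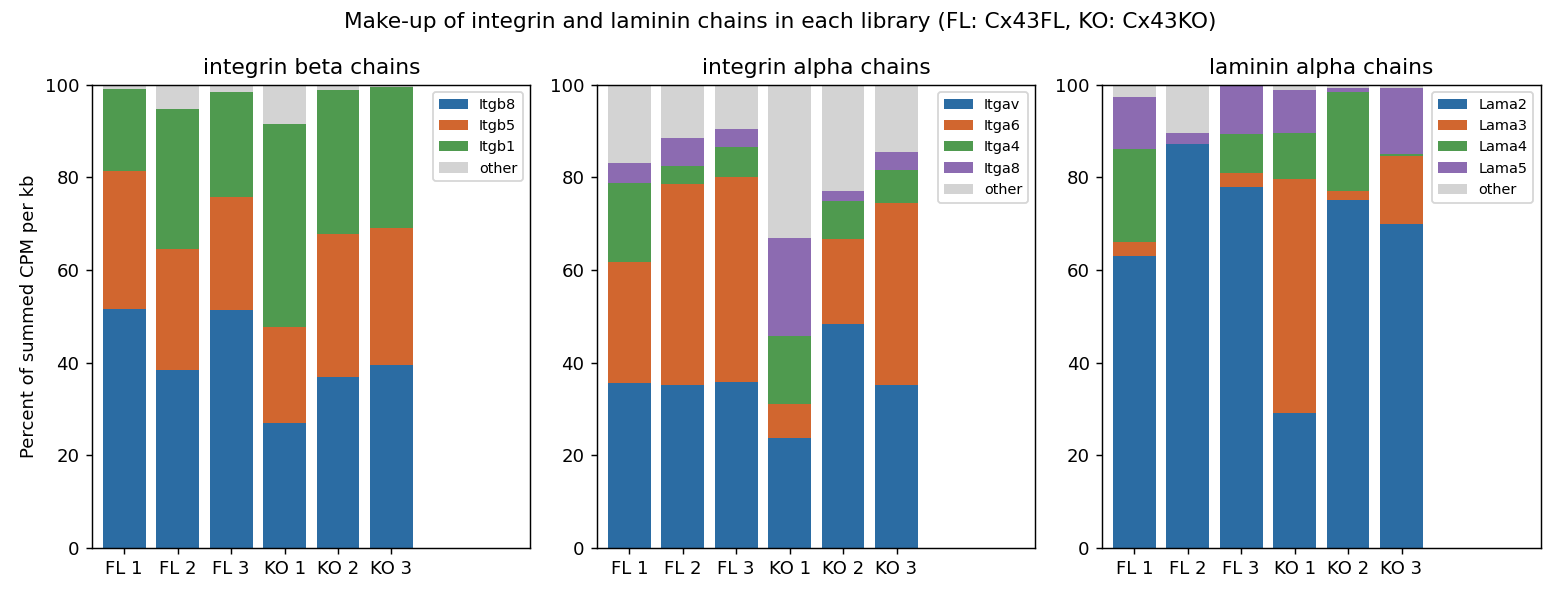
Share of each chain in the summed CPM per kb of the integrin beta, integrin alpha and laminin alpha chains, in percent, in each library (FL, Cx43FL; KO, Cx43KO). The first Cx43KO library differs in all 3 panels, with 27.0% Itgb8 among beta chains and 50.5% Lama3 among laminin alpha chains. Itga6 is taken on its processed transcript, on which the shares of the integrin alpha chains depend.

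Several chains were counted mainly in Cx43KO replicate 1. For 7 of the 31 genes (22.6%) this library exceeded each of the others more than 3 times, namely Itgb2, Itgb7, Itga5, Itga10, Lama3, Itga8 and Itga9, whereas 3.84% of all 22086 genes did so. Itgb2 had 45 counts in it, 3 and 1 counts in Cx43KO replicates 2 and 3 and 0 in Cx43FL, which pooled over each genotype is at least 10.2-fold higher than the floor of 3 counts over Cx43FL and rests on replicate 1. Itgb7, a beta chain of lymphocytes, had 2, 0 and 0 counts (Cx43FL) and 110, 1 and 0 counts (Cx43KO). Itga5, a fibronectin receptor chain, had 8, 0 and 10 counts (Cx43FL) and 68, 0 and 6 counts (Cx43KO).

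Itga10, a collagen receptor chain of cartilage, had 40, 0 and 2 counts (Cx43FL) and 264, 6 and 7 counts (Cx43KO), on a transcript of which 34.5% of the bases overlap exons of Gm42957 on the same strand. Lama3 had 5, 0 and 6 counts (Cx43FL) and 202, 7 and 48 counts (Cx43KO). Neither was tested by edgeR, whose filter on low counts removed both. Apart from Cx43KO replicate 1, Itga10 was highest in a Cx43FL library and Lama3 in Cx43KO replicate 3.

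Itga8, which pairs with Itgb1, had 3.49, 6.10 and 4.10 CPM (Cx43FL) and 29.98, 2.97 and 5.87 CPM (Cx43KO), and its log2 fold change of 1.499 (standard error 0.90) became -0.05 without replicate 1. Itga9, a partner of Itgb1 that binds tenascin and Vcam1, had 3.03, 0.531 and 0.716 CPM (Cx43FL) and 17.6, 3.46 and 2.41 CPM (Cx43KO). Cx43KO replicate 3 lay below Cx43FL replicate 1. The log2 fold change of Itga9 was 2.45 (standard error 1.15, adjusted p = 0.600 and unadjusted p = 0.0572 from edgeR), and 1.04 (standard error 1.29) without Cx43KO replicate 1.

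**Figure D5:**
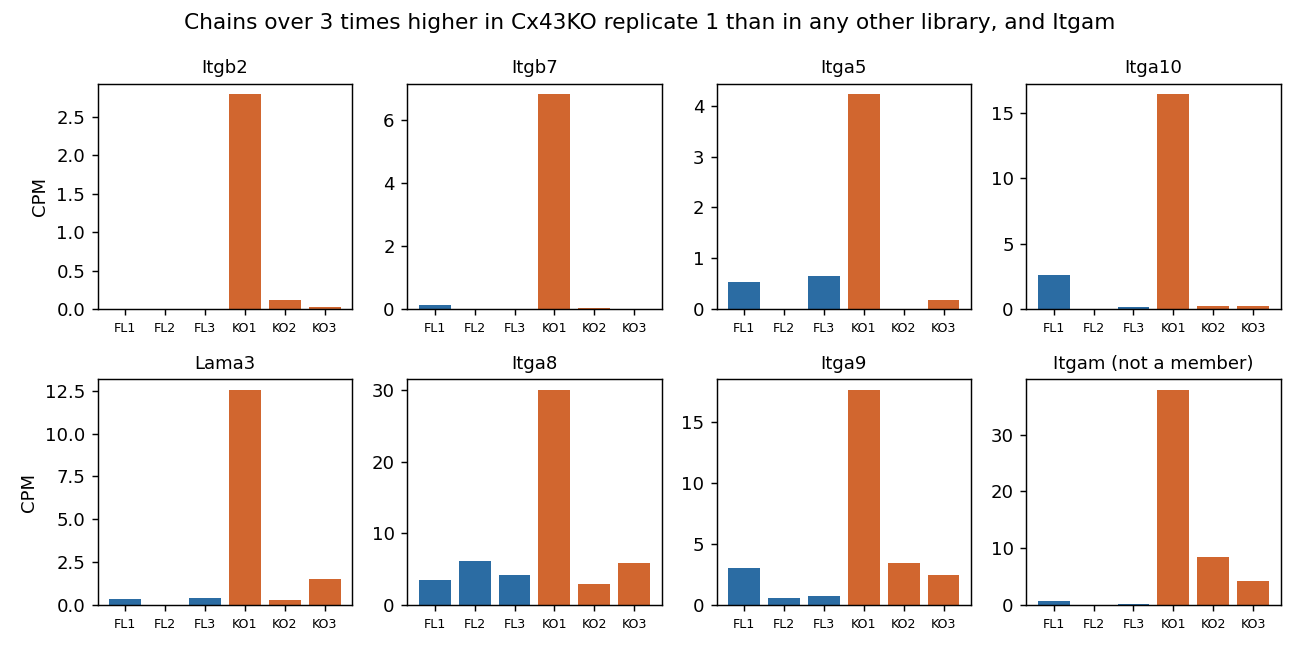
CPM of the 7 chains over 3 times higher in Cx43KO replicate 1 than in any other library, and of Itgam, in each library (blue bars, Cx43FL; orange bars, Cx43KO; each panel with its own axis from 0). Itgam is above all Cx43FL libraries in the other two Cx43KO libraries as well. Of the 7 chains Itgb2 alone is as well, by 3 and 1 counts, at or under the floor.

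The same library held the highest sums of the neuronal markers (4906 CPM, against 1655 to 3458 CPM in the others) and of the oligodendrocyte markers (2511 CPM, against 559 to 940 CPM) and the lowest of the astrocyte markers. The choroid plexus markers (32765 CPM, against 457 to 26192 CPM) and the oligodendrocyte precursor markers (30.8 CPM, against 13.4 to 20.1 CPM) were also highest in it. Its sum of 8 endothelial markers was 22.5 CPM (5.18 to 15.6 CPM in the others) and that of 7 mural markers 89.0 CPM (27.9 to 79.3 CPM). Single markers did not share this. Cldn5, Flt1 and Slco1a4 were highest in it, Kdr and Cdh5 in Cx43KO replicate 3 and Pecam1 in Cx43FL replicate 2. Tek and Tie1 were at 0 in it. Rgs5 alone made up 62.3 of the 89.0 mural CPM. Pdgfrb, Acta2, Notch3 and Abcc9 were highest in other Cx43KO libraries, and Tagln was lowest in it (0.062 CPM). Of the 7 mural markers, 1 (Kcnj8, a marker of pericytes) was at 0 in all libraries, and the others were counted. The part of these cells in the levels of these 7 chains was not tested.

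Without Cx43KO replicate 1, 20 of the 31 genes were tested and 0 were called (0.0788% of all tested genes were called higher). At an unadjusted p below 0.05 there were 4 higher (Itga7, Itgb1, Itgav and Itga11, with 5.16% of all tested genes) and 0 lower (with 3.44%). The log2 fold changes were then 2.39 for Itga7 and 0.71 for Itgav, with adjusted p of 0.581 and 0.580 from edgeR. Both Cx43KO libraries left lay above Cx43FL for 5 genes (Itgb1, Itgb5, Itgav, Itga7 and Itga11, with 13.8% of all tested genes) and below for 1 (Lamb2, with 12.3%). Itga11, a collagen receptor chain of fibroblasts, had 4, 0 and 1 counts (Cx43FL) and 7, 16 and 123 counts (Cx43KO), most of them in replicate 3. The fibroblast markers summed to 59.5, 24.7 and 66.2 CPM in Cx43KO replicates 1 to 3 and to 17.8 to 42.7 CPM in Cx43FL, and their part was not tested.

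The remaining genes had few counts. Itgb3, the beta chain of platelets and osteoclasts, had 15, 3 and 26 counts (Cx43FL) and 1, 6 and 1 counts (Cx43KO). Itga2, Itgb6, Lama1, Lamb3 and Lamc3 were at 0 counts in at least 1 library each. No fold change is given for them.

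Itgb2 acts with alpha chains that the naming rule leaves out. Itgam, its partner in myeloid cells, had 9, 0 and 3 counts (Cx43FL) and 610, 209 and 135 counts (Cx43KO), whereas Itgal and Itgax had at most 22 counts in any library. Every library labelled Cx43KO was above Cx43FL for Itgam. Its log2 fold change of 5.96 had a standard error of 1.33, an adjusted p of 0.490 from edgeR and of 5.55e-04 from DESeq2 with its prior. The level of Itgam thus exceeded that of its beta chain Itgb2 in all Cx43KO libraries, at 8.09, 1.79 and 0.890 CPM per kb against 0.941, 0.0406 and 0.0104 CPM per kb. The 12 microglia and myeloid markers summed to 30.1 to 58.2 CPM in Cx43FL and to 100, 97.3 and 169 CPM in Cx43KO replicates 1 to 3, higher in every Cx43KO library. In Cx43KO replicate 1, where Itgb2 and Itgam were highest, Trem2 was at 0, C1qa at 1 and Tyrobp at 10 counts. The part of myeloid cells was not tested.

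The genes around laminins and integrins were described by fixed lists, in which edgeR called 0 genes. Of 9 basement membrane partners and other laminin receptors, 8 were tested, with a median log2 fold change of 0.27. Dag1, the dystroglycan that binds Lama2 on endfeet, was the only one at an unadjusted p below 0.05 (5.66% of all tested genes were higher at this p; log2 fold change 1.11, standard error 0.45, adjusted p = 0.559 from edgeR), and its libraries overlapped. Of 12 ligands outside laminin, 10 were tested, with a median of 1.04, 1 at an unadjusted p below 0.05 (Ltbp1, which anchors latent TGF-beta, 1.21, standard error 0.52), 1 above (Fn1, fibronectin) and 1 below (Mfge8, -0.27, standard error 0.26) in every Cx43KO library. Over all tested genes these shares were 5.66%, 8.08% and 7.45%. Mfge8, a bridge between Itgav pairs and dying cells, had 201 to 225 CPM in Cx43KO and 225 to 275 CPM in Cx43FL, the closest libraries of both genotypes being level.

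All 22 genes of the adhesion machinery that ties integrins to actin were tested, with a median log2 fold change of 0.18. At an unadjusted p below 0.05 there were 2 higher, Ptk2b (1.43, standard error 0.39), a kinase related to focal adhesion kinase, and Zyx (1.13, standard error 0.42), which encodes zyxin of focal adhesions, and 0 lower (5.66% and 2.67% over all tested genes). Every library labelled Cx43KO was above Cx43FL for Lims2, Ptk2b, Zyx and Tns1, and below for 0 (8.08% and 7.45% over all tested genes). The neuronal markers, whose cells also contain Ptk2b, summed to 4906, 2153 and 3458 CPM in Cx43KO and to 1655 to 2240 CPM in Cx43FL, and their part was not tested. Of the 6 leukocyte and platelet alpha chains 3 were tested, with a median log2 fold change of 0.77, and Itgam alone was at an unadjusted p below 0.05.

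The counts hold 125 transcripts of the 31 genes, of which 50 were tested. At an unadjusted p below 0.05 there were 3 higher in Cx43KO, of Itga9 (1) and Itgb1 (2), and 0 lower, against 4.85% and 1.99% of all 49127 transcripts tested. For 9 genes at least 2 transcripts had identical counts in all 6 libraries (6 transcripts in Itgb4), so that reads were counted on more than 1 transcript and isoforms of a gene are not independent measurements.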

How the data were processed

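Polysomal mRNAs of hippocampal astrocytes were recovered by TRAP and sequenced in 3 Cx43FL and 3 Cx43KO libraries. Amplified cDNA (Ovation RNA-Seq) was sequenced as 50 bp reads. The authors filtered the reads with Eoulsan, mapped them with STAR on mm10 (Ensembl annotation), discarded multiply mapping reads, used HTSeq 0.5.3 for counting and deposited raw counts per Ensembl transcript. A transcript of a gene can share reads with another, and strand was not used here.

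Of 75466 transcripts, 73157 were matched to GENCODE M21 (GRCm38), and the 2309 others (1.60% to 1.78% of counts) were left out. For each of the 22086 genes the transcript with the largest summed count was used. Total counts on transcripts were 33423491 to 77030398 per library. The design had assumed counts per gene.

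The genotype comparison used edgeR 4.0.16 under R 4.3.3 (TMM, filterByExpr, genotype alone, quasi-likelihood test, Benjamini-Hochberg adjustment over 13545 genes). Calls required an adjusted p below 0.05 together with over 50 normalized counts on average in the higher genotype. Standard errors were derived from the fold change and its F statistic. Alternatives were other size factors, no filter, a minimum of 10 counts in each library, added-up transcripts, DESeq2 1.42.0 with and without its prior, the replicate number as a block, and leaving out each library. For single genes an exact permutation test (2-sided, on CPM plus 0.5 in log2) was added. Members were named, with full values for those above 1 CPM on average in either genotype or without overlap between genotypes, and a result for 1 of them is not reported here. The members and lists were chosen with earlier results of these data known. Other steps ran in Python 3.11.15 (scipy 1.17.1, pandas 2.3.3, numpy 2.4.6).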

Additional observations from a re-analysis of the deposited data

How the results depend on the processing

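No laminin or integrin was called at an adjusted p below 0.05 under any alternative fitted, where 1 gene, Itgb1, had an unadjusted p below 0.05 in the original setting. The genes with all of Cx43KO above all of Cx43FL numbered 2 in the original setting (8.08% of all tested genes), 4 without a filter (7.04%), 4 with transcripts added up (8.0%) and 3 to 6 with each library left out (10.5% to 16%), and those below numbered 0 (7.45%) and then 0 to 1 (10.3% to 15.8%). The median log2 fold change was 0.36 to 0.80 with each library left out. With transcripts added up, where shared reads count more than once, 11 genes instead of 6 were above 1 CPM per kb in Cx43FL. With the replicate number as a block, no call changed (Itgb1 1.16, adjusted p = 0.723 from edgeR), but the log2 fold change turned to 0.28 for Itga3 and to 0.56 for Itgb4. The deviations of libraries with the same number correlated at 0.0115, -0.00405 and -0.0548. With 3 libraries per genotype this cannot tell whether they were paired. No pairing was given in the sources used here, and none was assumed.

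Leaving out single libraries moved the log2 fold changes between these limits: -0.64 to 1.24 for Itga3, -1.17 to 0.10 for Itga6, -0.053 to 1.97 for Itga8, -1.15 to 1.97 for Itgb4, -0.11 to 0.25 for Itgb8, -0.32 to 0.070 for Lama2, -0.30 to 0.93 for Lama5 and -0.83 to 0.028 for Lamb2, and these 8 are the genes that changed sign, of which Itga6 and Itga8 did so without Cx43KO replicate 1 alone, and Itgb4 without Cx43FL replicate 2 alone among these. The cause was not tested. Of the genes that kept their sign, the limits were 0.29 to 1.29 for Itga4, 0.62 to 2.73 for Itga7, 1.04 to 3.61 for Itga9, 0.18 to 1.71 for Lama4 and 0.13 to 1.19 for Lamc1. The filter left 13 genes untested.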
